A study of Mus musculus with 21 samples.

Results

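The dietary flavonolignan silibinin was examined in mouse lung tumours that had formed after a tobacco carcinogen and repeated airway inflammation. The 3 libraries labelled NNK + LPS + Silibinin (here Sil 1, 2 and 3) were compared with the 3 labelled NNK + LPS (NNK_LPS 1, 2 and 3), 6 of the 21 libraries in the series, across every gene of the count table. Of 38924 gene symbols in that table, 15770 had enough counts to be tested. All mice were female A/J mice at 22 weeks after treatment, and every mouse in both groups had received NNK, a nicotine-derived nitrosamine, as 1 intraperitoneal dose of 100 mg/kg. Both groups then received LPS, the lipopolysaccharide of Gram-negative bacteria, at 5 µg per mouse in 50 µL through the nose 1 time per week, starting 1 week after NNK. The Sil group alone also ate a diet with silibinin at 20 µmol/g. The other groups drawn on here were NNK (carcinogen without LPS or agent), I3C (NNK, LPS and indole-3-carbinol at 20 µmol/g of diet) and Sil_I3C (NNK, LPS and both agents). In every NNK-treated group the RNA was that of lung tumours cut out of 3 mice and combined, per the labels' protocols. Whether each library stands for its own mouse is not stated, so the p-values below measure only the spread between libraries, which may in part be technical.

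Silibinin is the main flavonolignan of milk thistle seed and has been studied as a chemopreventive agent, with reported actions on inflammatory signalling, including NF-kB and STAT3, and on cell proliferation. NNK is activated by cytochrome P450 enzymes to species that alkylate DNA, and in A/J mice it gives lung adenomas and adenocarcinomas. LPS signals through the receptor TLR4 and draws neutrophils and other leukocytes into the airways.

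Each NNK_LPS library held 15.7 to 17.5 M counts and each Sil library 16.2 to 17.2 M, within 13.3 to 25.3 M over the series. Counts of mt-Atp8 divided by those of its mitochondrial neighbour mt-Atp6 split the libraries by the number that opens their titles. The quotient was 0.0782 to 0.0876 in libraries 9 to 16, which include all 6 compared here, 0.0206 to 0.0236 in libraries 1 to 8, and 0.117 to 0.135 in libraries 17 to 21. The labels name no batch. As a check of the tissue, Sftpc, the surfactant protein C gene of alveolar type 2 cells, stood at 26170 to 36180 CPM (counts scaled to a common library size) in NNK_LPS and at 20700 to 35010 CPM in Sil. Epcam, an epithelial adhesion gene, was at 93.4 to 126 CPM over the 6 libraries. Pecam1 of endothelium was at 431 to 637 CPM, and Ptprc of leukocytes at 151 to 216 CPM, so stroma and leukocytes were present in every library. Myh6, a heart muscle gene, was also present, at 43.8 to 137 CPM. In bulk RNA, fewer cells of a type and less RNA per cell cannot be told apart.

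No gene was called between Sil and NNK_LPS. With edgeR's quasi-likelihood test and Benjamini-Hochberg adjustment over the 15770 genes, 0 genes (0%) had an adjusted p under 0.05, and the lowest adjusted p was 0.9995. At an unadjusted p under 0.05 there were 578 genes (3.67%), of which 329 (2.09%) were numerically higher and 249 (1.58%) lower in Sil. DESeq2, run without the filter on low counts, also called 0 genes, with 617 of 22168 at an unadjusted p under 0.05. In edgeR the unadjusted count was 217 of 15111 genes with the compared groups alone in the fit. It was 1024, 375 and 910 without NNK_LPS 1, 2 and 3 in turn. Without Sil 1, 2 and 3 in turn it was 525, 611 and 1314. The fits with a library left out tested 15938 to 15960 genes. In all of these fits 0 genes were called. Among the 175 genes chosen for naming, the lowest edgeR adjusted p was 0.0769 without NNK_LPS 1 and 0.4806 without Sil 3. The 3 Sil values lay entirely above the 3 NNK_LPS values for 546 genes (3.46%) and entirely below for 440 (2.79%), 986 (6.25%) in either direction. The log2 fold change was above 0 for 8121 genes (51.5%) and below 0 for 7649 (48.5%), with a median of 0.0049 over all genes. For comparison, the same fit called 318 genes (2.02%) for I3C versus NNK_LPS and 214 (1.36%) for Sil_I3C versus NNK_LPS. These comparisons use the same 3 NNK_LPS libraries as Sil versus NNK_LPS, and I3C 2 and 3 and all Sil_I3C libraries lie in the set of titles 17 to 21, while I3C 1 lies in that of NNK_LPS. The part of library set in those counts was not tested.

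The 95% intervals show what size of difference was left possible, given the spread between libraries estimated over all 7 groups. They do not rest on the spread of these 6 libraries alone. For a gene more variable here than in the other groups, the interval may be too narrow. Their median half-width was 0.31 on the log2 scale. For 13146 genes (83.4%) the whole interval lay within a 2-fold change in either direction, and for 10292 (65.3%) within a 1.5-fold change. Precision followed expression level. Among 8312 genes at 10 to 100 CPM, 96.7% had an interval within 2-fold, against 71.8% of 3979 genes at 1 to 10 CPM and 10.1% of 1308 genes under 1 CPM. For genes under 1 CPM, the intervals therefore mostly did not exclude a 2-fold change at this depth and spread. The intervals are not adjusted for the number of genes, so they do not give the size of change that would be called. A fold change of over 2 in either direction was estimated for 241 genes (1.53%), 127 of them under 1 CPM.

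**Figure D1:**
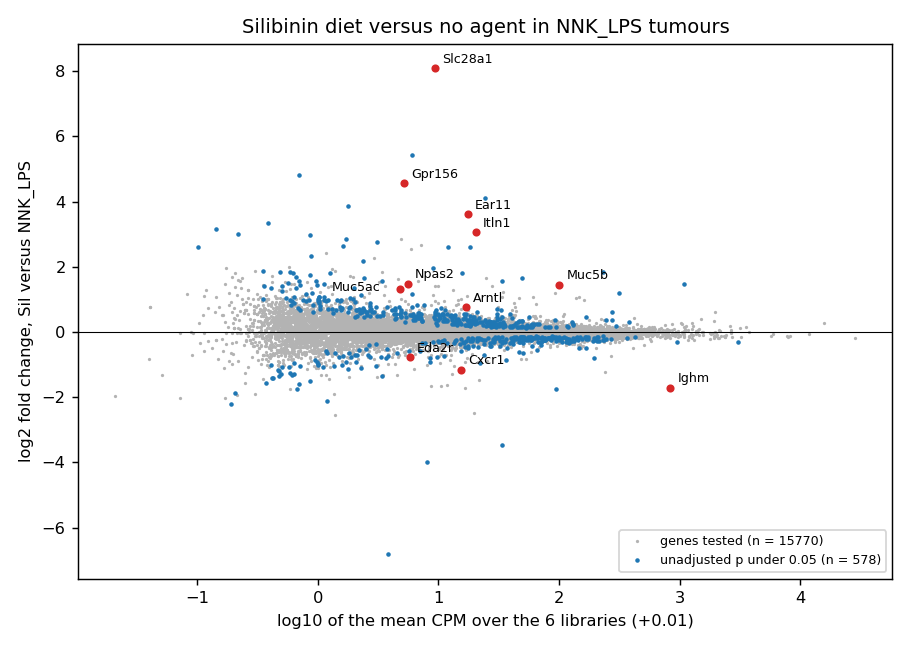
Each point is 1 of 15770 genes, with the log10 of its mean CPM over the 6 libraries on the x axis and its log2 fold change in Sil versus NNK_LPS on the y axis. Blue points are the 578 genes at an unadjusted p under 0.05, red points are genes named in the text, and no gene passed the adjusted threshold. Slc28a1 is plotted at a fitted value that rests on 3 counts in NNK_LPS.

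The 6 libraries did not separate by diet. The closest pair was NNK_LPS 1 and Sil 1, with a Pearson r of log2 CPM across genes of 0.9881, followed by NNK_LPS 1 and Sil 2 at 0.987 and by Sil 1 and Sil 2 at 0.9868. The least alike of the 15 pairs were both within the Sil group, Sil 3 with Sil 2 (r = 0.968, 1438 genes over 2-fold apart) and Sil 3 with Sil 1 (r = 0.9685, 1339 genes). Genes are not independent replicates, so these r values are descriptions. On the first principal component, which held 41.5% of the variance, Sil 1, Sil 2 and NNK_LPS 1 lay at -30.31, -27.8 and -23.5, and NNK_LPS 3, NNK_LPS 2 and Sil 3 at 13.47, 25.13 and 43.01. NNK_LPS 2 stood apart on the second component (21.7%), at -42.12. With NNK_LPS 2 and Sil 3 both left out, an alternative chosen after seeing the data, 0 genes were called. Of 15946 genes tested there, 908 had an unadjusted p under 0.05.

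**Figure D2:**
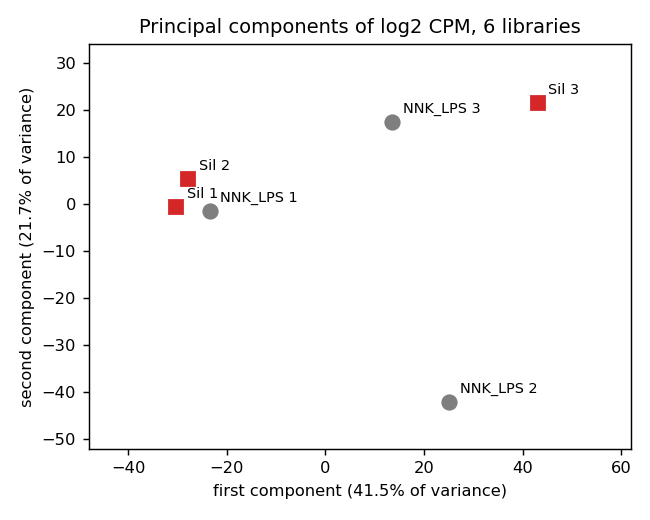
Each point is 1 library placed by its first (x axis) and second (y axis) principal component of log2 CPM, with circles for NNK_LPS and squares for Sil. Sil 1 and Sil 2 lie beside NNK_LPS 1, while Sil 3 lies at the other end of the first component at 43.01.

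The comparison was read through 64 gene lists of cell types and pathways. Of 991 list genes tested, 0 were called and 43 (4.34%) had an unadjusted p under 0.05, beside 3.67% of all genes. Since nothing was called, the members named from each list are those with the smallest unadjusted p, and their values describe these libraries only.

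Mucosal defence and mucous cell genes had the highest list medians of the 64 lists. Mucous cells make the gel-forming mucins that trap particles on the airway surface, and 7 of 10 tested mucous markers had a log2 fold change above 0, with a list median of 1.07 beside 0.0049 for all genes. Muc5ac, the gel-forming mucin of goblet cells (chromosome 7, 141788972 to 141819231, GRCm38), stood at 4.66, 1.64 and 1.99 CPM in NNK_LPS 1, 2 and 3 and at 9.23, 6.15 and 5.30 CPM in Sil 1, 2 and 3. The groups did not overlap, with means of 2.76 ± 1.65 and 6.89 ± 2.07 CPM (SD, n = 3 each) and a log2 fold change of 1.32 ± 0.42 (SE), but the edgeR adjusted p was 0.9995. Tff2, a trefoil peptide secreted with mucus, was at 2.39, 0.262 and 0.854 CPM in NNK_LPS and at 4.68, 4.00 and 2.38 CPM in Sil. NNK_LPS 1 and Sil 3 overlapped for this gene. Muc5b, the other main airway mucin and named after its values were seen, was at 124, 13.7 and 22.9 CPM in NNK_LPS and at 236, 151 and 53.03 CPM in Sil. For both Tff2 and Muc5b the highest NNK_LPS library was NNK_LPS 1 and the lowest Sil library was Sil 3. Of the 10 mucous markers, 6 had an unadjusted p under 0.05, beside 3.67% of all genes. The mucous median was 0.71 without NNK_LPS 2 and 1.61 without NNK_LPS 1. The summed mucous list stood at 216.1, 33.31 and 52.22 CPM in NNK_LPS and 387.4, 249.2 and 135.9 CPM in Sil. NNK_LPS 1 thus lay above Sil 3. Muc5b ranked 80 on the first component's side that holds NNK_LPS 1, Sil 1 and Sil 2. Tff2 ranked 42 on the second component's side opposite NNK_LPS 2, so neither gene is separate from the components.

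All 18 ciliated cell markers were above 0, with a median of 0.39 and a range of 0.24 to 0.54. Of these, 4 had an unadjusted p under 0.05, beside 3.67% of all genes. Tekt1, a filament protein of the ciliary axoneme, was at 12.7, 5.71 and 10.6 CPM in NNK_LPS and at 15.4, 14.8 and 12.0 CPM in Sil. Foxj1, the transcription factor of motile cilia, was at 81.1, 35.4 and 55.7 CPM and at 90.4, 97.9 and 54.5 CPM. NNK_LPS 2 was the lowest library for both, and the ciliated median was 0.16 without it. All 12 club cell markers were also above 0, with a median of 0.23 and none at an unadjusted p under 0.05. Scgb1a1, the main secretoglobin of club cells, stood at 10820 to 18070 CPM in NNK_LPS and at 15640 to 19720 CPM in Sil. Hp (haptoglobin) and Aldh1a1 (a retinaldehyde dehydrogenase) differed by 0.23 ± 0.12 each on the log2 scale, and for both the 3 Sil libraries lay above the 3 NNK_LPS libraries. Markers of 1 cell type come from the same cells and were not independent, so a list of one sign does not count as many observations. The summed level of the ciliated list was 713.5, 422.6 and 628.5 CPM in NNK_LPS and 805.2, 803.3 and 632.8 CPM in Sil. How much airway each tumour piece held was not measured, and its part in these values was not tested.

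Secreted defence proteins of the mucosa had a median of 1.08 over 15 genes, of which 12 were above 0. An unadjusted p under 0.05 was found for 5 of them, beside 3.67% of all genes. Itln1, a lectin that binds microbial glycans, was at 12.1, 0.131 and 0.854 CPM in NNK_LPS and at 17.7, 23.4 and 68.3 CPM in Sil. The groups did not overlap, but NNK_LPS 1 was over 10 times the next library of its own group. Lyz1, a lysozyme gene, was at 162, 256 and 156 CPM in NNK_LPS and at 217, 879 and 225 CPM in Sil, so the difference lay mainly in Sil 2. Retnla, a resistin-like protein of type 2 inflammation named after its values were seen, was at 179, 45.8 and 75.3 CPM in NNK_LPS and at 114, 99.1 and 867 CPM in Sil, so its difference lay in Sil 3. The median of this list was 0.42 without Sil 1 and 0.77 without Sil 3. Its summed level overlapped between groups, at 14620, 15950 and 11640 CPM in NNK_LPS and 14840, 13330 and 15220 CPM in Sil. Itln1 ranked 2 on the second component's side opposite NNK_LPS 2, so it is not separate from that component.

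**Figure D3:**
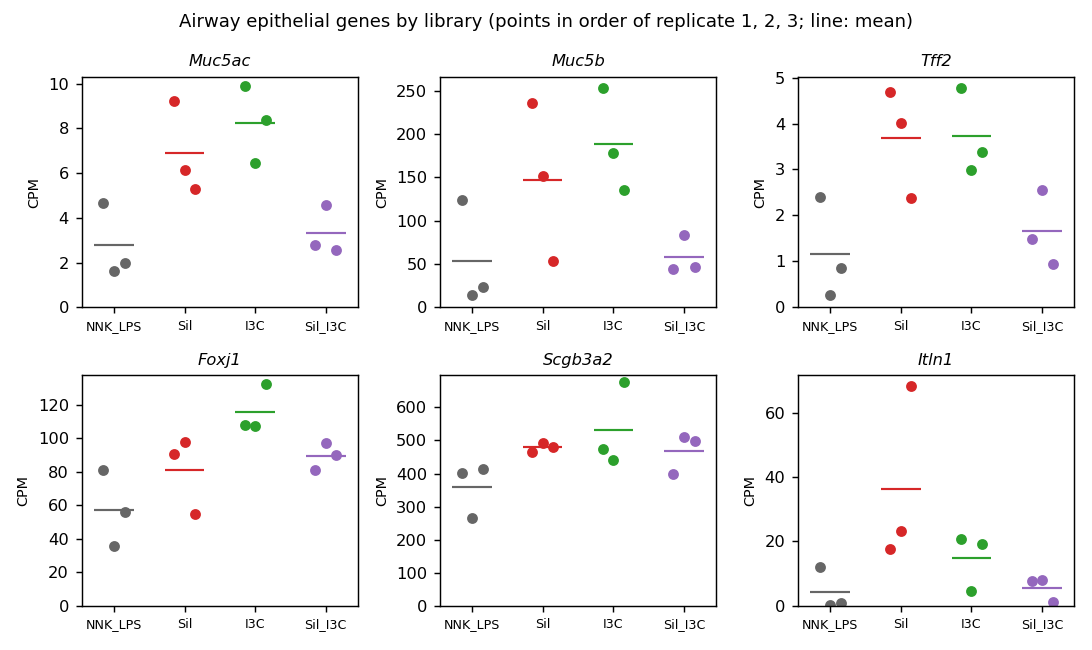
Points are the CPM of single libraries (y axis) in the 4 tumour groups given NNK and LPS (x axis), for 6 airway genes, and lines are group means. Muc5ac in Sil lies at 5.30 to 9.23 CPM, above the 1.64 to 4.66 CPM of NNK_LPS, while Foxj1 and Muc5b overlap between these groups.

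Alveolar and stromal markers were near 0. Alveolar type 2 markers had a median of -0.07 (4 of 19 above 0), type 1 markers -0.07 (3 of 13), endothelial markers -0.03 (8 of 18) and fibroblast markers 0.01 (11 of 17). Lpcat1, a surfactant lipid enzyme of type 2 cells, differed by -0.16 ± 0.13, with a 95% interval of -0.43 to 0.11. Cldn18, a tight junction gene of type 1 cells, differed by -0.14 ± 0.10. All 7 mesothelial markers were below 0, with a median of -0.36. Wt1, a transcription factor of mesothelium, was at 4.72, 3.02 and 5.97 CPM in NNK_LPS and at 3.26, 4.60 and 1.55 CPM in Sil, with Sil 3 the lowest library. Heart muscle markers had a median of 0.49 (9 of 10 above 0) and adipocyte markers 0.58 (8 of 9). The summed heart muscle level was 168.5, 87.99 and 88.11 CPM in NNK_LPS and 247.3, 80.53 and 104.4 CPM in Sil. Adipoq, which encodes the fat hormone adiponectin, was at 4.34, 0 and 0.228 CPM and at 2.95, 3.46 and 0.417 CPM. NNK_LPS 1, Sil 1 and Sil 2, which lay together on the first component, were the 3 highest libraries for Adipoq. Adipoq itself ranked 17 among the genes that weighed most on that side of the component, so this is not a separate observation.

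Inflammatory genes, on which silibinin is reported to act, gave no call. Of 24 NF-kB and TLR pathway genes 16 were above 0, with a median of 0.06 and none at an unadjusted p under 0.05. Tlr4, the LPS receptor, stood at 47.6, 54.0 and 40.4 CPM in NNK_LPS and at 40.0, 40.0 and 46.6 CPM in Sil, a log2 fold change of -0.17 ± 0.10 with a 95% interval of -0.37 to 0.04. Nfkb1, the p105 subunit gene, differed by 0.14 ± 0.09, with an interval of -0.05 to 0.34. The STAT3 and acute-phase list had a median of 0.06 over 22 genes. Stat3 itself, named after its values were seen, was at 325, 312 and 235 CPM and at 326, 290 and 255 CPM, and its interval of -0.27 to 0.27 lay within a 1.5-fold change. The 29 inflammatory cytokine and chemokine genes had a median of 0.20, with 18 above 0 and members from -1.96 to 1.83. Cxcl5, a neutrophil-attracting chemokine, was at 1.45, 0.656 and 2.33 CPM in NNK_LPS and at 2.52, 8.42 and 5.12 CPM in Sil. Ccl7, a monocyte chemokine, was at 0.818 to 0.910 CPM in NNK_LPS and at 0.923, 6.69 and 0.833 CPM in Sil, so its value of 1.70 ± 0.85 came from Sil 2.

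Neutrophil markers had a median of 0.50, with 12 of 14 above 0. Cxcr1, a receptor for CXC chemokines, went the other way, at 16.4, 31.9 and 15.4 CPM in NNK_LPS and at 10.2, 9.79 and 8.51 CPM in Sil. Its groups did not overlap, and the log2 fold change was -1.16 ± 0.44 (edgeR adjusted p = 0.9995). Csf3r, the receptor for granulocyte colony-stimulating factor, named after its values were seen, was at 41.0, 27.6 and 19.0 CPM and at 47.6, 28.9 and 21.6 CPM. The summed neutrophil list stood at 421.7, 166.4 and 81.17 CPM in NNK_LPS and 630.5, 287.3 and 145.9 CPM in Sil, with more than a 4-fold spread within each group. T cell markers had a median of 0.10 and MHC class II genes -0.05. Interferon-stimulated genes had a median of -0.07 (7 of 23 above 0) and interferon-gamma targets -0.21 (3 of 19). Gbp7, an interferon-induced GTPase, was at 125, 98.7 and 168 CPM in NNK_LPS and at 82.3, 142 and 78.4 CPM in Sil, with overlapping groups. Ighm, the IgM constant region named after its values were seen, spread from 171 to 3117 CPM within NNK_LPS and from 94.6 to 593 CPM within Sil.

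Medians of growth and tumour lists were small, while single members reached larger values. The RAS-MAPK feedback list, whose genes are transcribed when ERK is active, had a median of -0.18 with 5 of 19 above 0. Phlda1 was at 62.8, 85.7 and 57.7 CPM in NNK_LPS and at 49.3, 40.6 and 63.2 CPM in Sil, a log2 fold change of -0.43 ± 0.18. Dusp6, the ERK phosphatase, differed by -0.33 ± 0.15, with a 95% interval of -0.64 to -0.02. In both genes Sil 3 overlapped NNK_LPS. Areg, which encodes the EGF receptor ligand amphiregulin, was at 22.9, 57.5 and 17.6 CPM in NNK_LPS and at 24.4, 14.3 and 14.2 CPM in Sil, with NNK_LPS 2 the highest library. Braf, a kinase of the same pathway, differed by -0.16 ± 0.05 with no overlap. P53 targets had a median of -0.14, with 4 of 17 above 0. Eda2r, a TNF receptor family gene induced by p53, was at 7.93, 6.30 and 7.57 CPM in NNK_LPS and at 3.75, 5.26 and 3.75 CPM in Sil. Its log2 fold change was -0.77 ± 0.21, with a 95% interval of -1.22 to -0.32 that is not adjusted for the number of genes. Cell cycle and mitosis genes had a median of -0.06 with 11 of 32 above 0 and a range of -0.32 to 0.14. Cdk2, the S phase kinase, differed by -0.10 ± 0.08, and Cdkn1b, the inhibitor p27, by -0.17 ± 0.11. Mki67, the proliferation marker, named after its values were seen, was at 46.6, 50.3 and 38.2 CPM in NNK_LPS and at 37.6, 36.3 and 41.1 CPM in Sil, and its interval of -0.66 to 0.20 did not reach a 2-fold change. The tumour-linked list had a median of -0.07 over 22 genes. An unadjusted p under 0.05 was found for 4 of these 22, 2 of 19 RAS-MAPK, 1 of 17 p53 and 0 of 32 cell cycle genes. The share over all genes was 3.67%. In the tumour-linked list 3 genes lay higher and 2 lower in Sil without overlap, beside 3.46% and 2.79% of all genes.

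List medians of detoxification and transport genes were near 0, while single members ranged more widely. The 24 targets of NRF2, the transcription factor of antioxidant defence, had a median of 0.06. Gsr, glutathione reductase, was at 56.3, 47.7 and 48.0 CPM in NNK_LPS and at 58.0, 55.2 and 62.7 CPM in Sil, a log2 fold change of 0.21 ± 0.08. Among 9 targets of AhR, the receptor for planar aromatic ligands, 6 were above 0, with a median of 0.10. Those below 0, named after their values were seen, were Ugt1a6a (-0.58 ± 0.30), Nqo1 (-0.12 ± 0.25) and Tiparp (-0.10 ± 0.13). Aldh3a1, an aldehyde dehydrogenase, was at 16.2, 12.3 and 11.0 CPM and at 21.7, 22.1 and 14.1 CPM, a log2 fold change of 0.55 ± 0.19 with overlapping groups. Cyp1b1, which oxidises aromatic hydrocarbons, differed by 0.66 ± 0.32. Cyp1a1, the best known AhR target, named after its values were seen, was at 0.503, 3.61 and 0.626 CPM and at 1.11, 3.58 and 1.61 CPM, so the libraries of each group overlapped. Abcc4, an exporter of organic anions and conjugates, was at 27.9, 20.2 and 24.6 CPM in NNK_LPS and at 28.7, 28.7 and 33.3 CPM in Sil, without overlap and with a log2 fold change of 0.32 ± 0.12. Abcc6, a related exporter, differed by 0.71 ± 0.33, from 0.629, 1.05 and 1.25 CPM to 1.35, 1.37 and 2.08 CPM. In the transport list 3 of 13 genes lay higher in Sil without overlap, beside 3.46% of all genes, and the list median was 0.07.

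**Figure D4:**
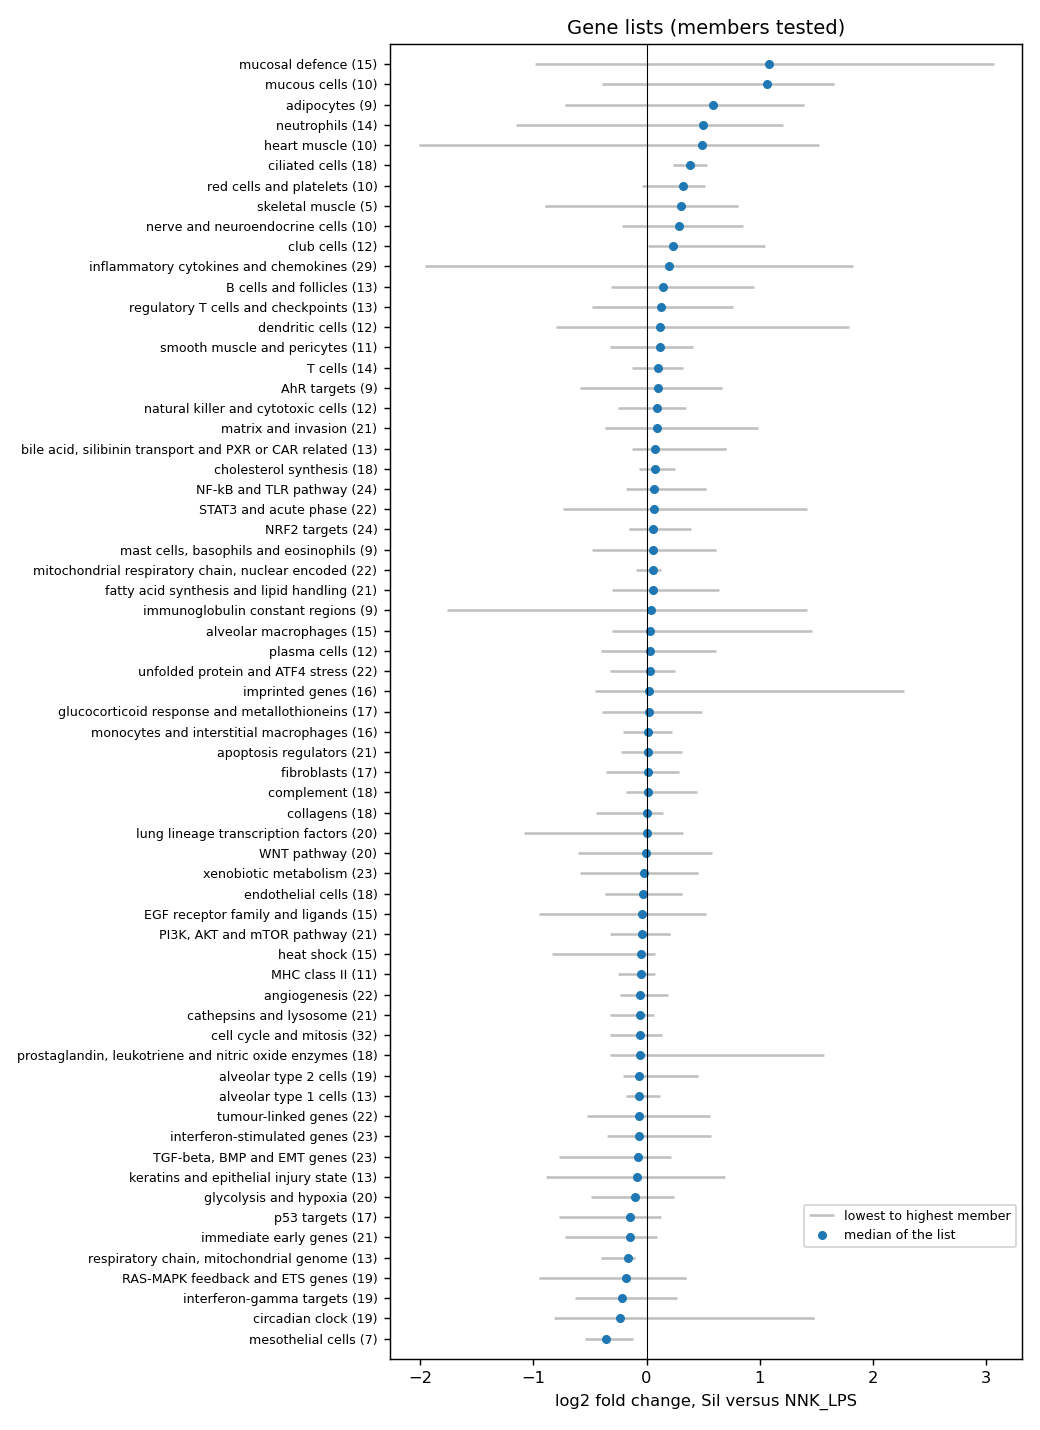
Each row is 1 of 64 gene lists with its number of tested members; the point is the median log2 fold change in Sil versus NNK_LPS and the line runs from the lowest to the highest member (x axis). Medians run from -0.36 for mesothelial cells to 1.08 for mucosal defence, and no member of any list was called.

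The circadian clock is a feedback loop in which ARNTL and its partners CLOCK or NPAS2 activate genes of the PER, CRY and REV-ERB families, whose products then repress it. Of 19 clock genes tested, 5 were above 0, with a median of -0.23. Npas2 (chromosome 1, 39193731 to 39363236, GRCm38) stood at 2.58, 2.10 and 4.04 CPM in NNK_LPS and at 6.58, 4.60 and 13.3 CPM in Sil. Arntl was at 12.0, 9.84 and 15.8 CPM in NNK_LPS and at 18.0, 16.6 and 29.2 CPM in Sil. For both genes the groups did not overlap and Sil 3 was highest, with log2 fold changes of 1.48 ± 0.49 and 0.76 ± 0.30 (edgeR adjusted p = 0.9995 for each). Per3, a repressor-arm gene named after its values were seen, was at 64.7, 92.8 and 45.0 CPM in NNK_LPS and at 42.0, 53.9 and 18.7 CPM in Sil, with Sil 3 lowest. With NNK_LPS 2 and Sil 3 left out the list median was 0.15, so its sign rested on those libraries. The hour at which mice were killed is not given in the labels, and its part in these values was not tested.

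Promoters of clock genes carry short elements through which the loop acts, and a pair is shown for the genes whose values stood at opposite signs. The windows, from RefSeq (GRCm38.p6), are 300 bases that end 50 bases past a gene's start and are written 5′ to 3′ on the gene's strand. Capitals mark AGGTCA, the half-site bound by ROR and REV-ERB receptors, in Arntl (chr7:113207261-113207560, plus strand), and TTATGTAA, a D-box of the kind bound by DBP, TEF, HLF and NFIL3, in Per3 (chr4:151044616-151044915, minus strand).
Arntl: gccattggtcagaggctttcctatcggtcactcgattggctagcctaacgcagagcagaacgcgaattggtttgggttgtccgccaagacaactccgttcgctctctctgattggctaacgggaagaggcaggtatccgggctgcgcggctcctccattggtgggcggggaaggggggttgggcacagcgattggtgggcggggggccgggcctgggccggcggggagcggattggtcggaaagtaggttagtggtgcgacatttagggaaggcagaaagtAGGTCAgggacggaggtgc
Per3: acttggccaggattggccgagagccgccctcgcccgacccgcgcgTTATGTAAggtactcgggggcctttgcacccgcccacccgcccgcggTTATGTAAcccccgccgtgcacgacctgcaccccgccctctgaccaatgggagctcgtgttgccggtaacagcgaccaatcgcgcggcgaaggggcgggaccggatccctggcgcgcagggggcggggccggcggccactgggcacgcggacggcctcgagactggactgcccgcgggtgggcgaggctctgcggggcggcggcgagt
RefSeq windows were matched for 16 of the 19 clock symbols, 21 windows in all, and both strands were searched. TTATGTAA was found in 1 of the 21 windows, that of Per3, with 2 matches, and in 0.938% of all 32851 windows. AGGTCA was found for 5 clock genes, in 5 of the 21 windows, and in 16.3% of all windows. The E-box CACGTG was found for 5 clock genes, in 6 of the 21 windows, and in 7.15% of all windows. The other Arntl window (chr7:113207215-113207514, plus strand) and the Npas2 window held no match to any of these elements. The matches are descriptions of letters, and no binding was measured here.

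Silibinin was also present in the Sil_I3C group, and Sil_I3C versus I3C asks what it adds when I3C is in the diet. This comparison shares no library with Sil versus NNK_LPS. It called 0 genes (0%), with 1687 (10.7%) at an unadjusted p under 0.05 in edgeR. DESeq2 called 71. I3C 1 lies in the set of titles 9 to 16, and the other I3C and Sil_I3C libraries in titles 17 to 21. The test of the difference itself, the silibinin effect with I3C minus that without, also called 0 genes (0%) in edgeR, with 1450 (9.19%) at an unadjusted p under 0.05, and 21 in DESeq2. Of the 578 genes at an unadjusted p under 0.05 without I3C, 183 (31.7%) had the same sign with I3C, beside 6907 (43.8%) of all genes tested.

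Mucous and ciliated list medians had opposite signs with and without I3C. Muc5ac stood at 9.88, 6.43 and 8.38 CPM in I3C and at 2.79, 4.56 and 2.55 CPM in Sil_I3C, a log2 fold change of -1.32 ± 0.41 beside 1.32 ± 0.42 without I3C. Its difference between the contrasts was -2.63 ± 0.59 (edgeR adjusted p = 0.421). The mucous list had a median of -0.98 with I3C and 1.07 without, and the ciliated list -0.22 and 0.39. With I3C, 0 of 10 mucous, 2 of 18 ciliated and 5 of 12 club cell markers were above 0, beside 7, 18 and 12 without, and the club cell median was -0.07. Heart muscle (-1.43), adipocyte (-2.40) and neutrophil (-1.69) medians with I3C were also opposite to those without (0.49, 0.58 and 0.50). Interferon-stimulated genes had a median of 0.66 with I3C and -0.07 without, and interferon-gamma targets 0.94 and -0.21. With I3C, 23 of 23 and 18 of 19 of them were above 0. Of these, 14 and 10 had an unadjusted p under 0.05, beside 10.7% of all genes. Myh6 stood at 211.7, 295.4 and 236.2 CPM in I3C and at 70.6, 142 and 61.3 CPM in Sil_I3C, so heart muscle RNA moved with this contrast, and its part in the other values was not tested.

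Npas2, Arntl and Per3 had the same sign in both contrasts. Npas2 was at 7.95, 2.17 and 6.90 CPM in I3C and at 17.4, 24.8 and 23.8 CPM in Sil_I3C, a log2 fold change of 1.96 ± 0.46 (edgeR adjusted p = 0.210), and Arntl differed by 1.27 ± 0.29. Per3 differed by -1.76 ± 0.40, from 34.5, 76.7 and 66.1 CPM in I3C to 24.8, 11.4 and 16.1 CPM in Sil_I3C. For Npas2 and Per3 the difference between the contrasts was 0.48 ± 0.66 and -0.94 ± 0.55. Dbp, a D-box binding factor and clock output named after its values were seen, differed by -3.23 ± 0.70 with I3C and by -0.61 ± 0.63 without. Nr1d1, the REV-ERB alpha gene, also named after its values were seen, differed by -2.17 ± 0.44 with I3C and -0.02 ± 0.42 without. Of the 19 clock genes, 13 had an unadjusted p under 0.05 with I3C and 2 without, beside 10.7% and 3.67% of all genes.

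**Figure D5:**
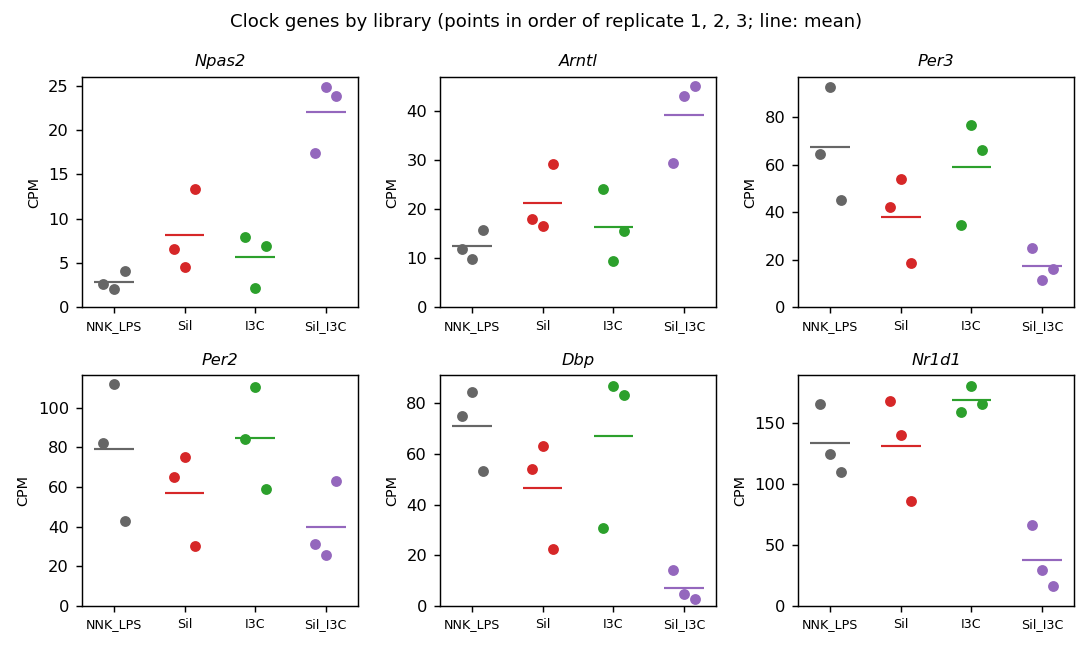
Points are the CPM of single libraries (y axis) in the 4 tumour groups given NNK and LPS (x axis), for 6 clock genes, and lines are group means. Npas2 lies at 4.60 to 13.3 CPM in Sil against 2.10 to 4.04 CPM in NNK_LPS, and Dbp and Nr1d1 are lowest in Sil_I3C.

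The genes that differed between NNK_LPS and NNK tumours were examined in Sil to see where they stood. There were 15 such genes (0.0951%), and both comparisons use the NNK_LPS libraries, so only the values are given. The NNK libraries lie in titles 1 to 8 and the NNK_LPS libraries in titles 9 to 16, the part of library set in these calls was not tested, and 1 of the 15 genes is mt-Atp8. The genes named here were chosen after their values were seen. Slc22a3, an organic cation transporter, stood at 4.72 ± 0.839 CPM in NNK, 1.75 ± 0.242 in NNK_LPS and 2.95 ± 0.191 in Sil (SD, n = 3 each). Ly6c2, a monocyte surface antigen, stood at 25.4 CPM in NNK, 67.6 in NNK_LPS and 61.3 in Sil, and Slit3, a guidance ligand, at 44.0, 18.8 and 23.3 CPM. All of the 15 but Clec4a2 and Rpl23a had a Sil mean on the NNK side of the NNK_LPS mean, which the choice of the genes on the shared NNK_LPS libraries favours. Clec4a2, a myeloid lectin receptor, stood at 9.58, 18.3 and 19.4 CPM in NNK, NNK_LPS and Sil, and Rpl23a, a ribosomal protein gene, at 140.9, 314.7 and 337.4 CPM.

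Several large single-gene values came from 1 library, and all genes in this paragraph were chosen after their values were seen. A level of at least 5 CPM and 10 times the next library of the group was found for 19 genes in NNK_LPS, 9 of them immunoglobulin segments, and for 10 in Sil, 4 of them segments. All 10 others in NNK_LPS were high in NNK_LPS 1, among them Bpifa1, an airway defence protein, at 277 CPM against 3.41 and 3.76 CPM. In Sil 3 the high genes included Clca3, a goblet cell gene, at 131 CPM against 1.29 and 5.20 CPM, and Ear11, a ribonuclease of macrophages and eosinophils, at 91.7 CPM against 4.43 and 1.37 CPM. Chi3l3, a chitinase-like protein of alternatively activated macrophages, stood at 469.3 to 707.6 CPM in NNK_LPS, at 543.9 and 678.7 CPM in Sil 1 and Sil 2, and at 3554 CPM in Sil 3. Sil 3 also held 0.181% of its counts in immunoglobulin genes, against 1.25% and 1.32% in Sil 1 and Sil 2. Slc28a1, a nucleoside transporter, stood at 27.6 and 28.4 CPM in Sil 1 and Sil 2, at 0.119 CPM in Sil 3 and at 0, 0.197 and 0 CPM in NNK_LPS. It was at 11.2, 26.0 and 30.7 CPM in I3C and at 0, 1.05 and 0.130 CPM in Sil_I3C, so high and low libraries occurred with and without silibinin.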

How the data were processed

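RNA was sequenced from 21 mouse lung libraries, 3 in each of 7 groups, prepared with the TruSeq RNA kit, version 2, per the labels' protocols. The authors deposited whole-number counts per gene symbol, with the build mm10 per the submitters' processing notes. Which aligner, counter, annotation and strand setting were used is not given in the sources used here, so genes that share sequence or position with others, such as Lyz1, Retnla, Ear11, Chi3l3 and immunoglobulin genes, are uncertain.

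Groups came from the treatment label. The analysis ran in edgeR 4.0.16 (R 4.3.3): scaling by the trimmed mean of M-values, filterByExpr with a minimum count of 10, and a robust quasi-likelihood fit of all 7 groups (14 residual degrees of freedom, biological coefficient of variation 0.168). Each contrast was adjusted by Benjamini-Hochberg over 15770 genes, with a threshold of 0.05. CPM are counts relative to the scaled library size. Alternatives used DESeq2 1.42.0, limma 3.58.1 (voom), other scaling, other filters and left-out libraries. The script was tested on simulated data. Principal components and correlations used log2 CPM with a prior count of 2.

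The libraries, gene lists and rules were chosen with earlier results of these data known. Named genes were to be the 15 highest and 15 lowest log2 fold changes among called genes without overlap. As none was called, up to 2 members of each list with the smallest p and a fixed set of tissue markers were named. Adjusted p-values tied near 1, so members were ordered by unadjusted p. Gene coordinates came from GENCODE M21 (GRCm38).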

Additional observations from a re-analysis of the deposited data

How the results depend on the processing

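For Sil versus NNK_LPS the count of called genes was 0 under every alternative run: relative log expression scaling, no filter on low counts, no robust options, the compared groups alone, libraries 9 to 16 alone, tumour libraries alone, voom with quality weights, DESeq2, NNK_LPS 2 and Sil 3 both left out, and each library left out in turn (range 0 to 0). Genes at an unadjusted p under 0.05 numbered 578 of 15770 as reported and 1015 of 15770 with quality weights. They numbered 375 to 1314 with a library left out, where 15938 to 15960 genes were tested. The count was 217 of 15111 with the compared groups alone and 235 of 15936 with libraries 9 to 16 alone. The alternatives of tumour libraries alone, quality weights and the paired omission were chosen after seeing the data. For Sil_I3C versus I3C, DESeq2 called 71 genes, 23 higher and 48 lower, and leaving out single libraries gave 0 to 2, all lower, with 2 without Sil_I3C 3. For the silibinin effect with I3C minus without, DESeq2 called 21 genes, 5 higher and 16 lower, and leaving out single libraries gave 0 to 10, all lower, with 10 without NNK_LPS 1. The cause was not tested. With the replicate number as a block, 0, 1 (lower) and 0 genes were called in these 3 contrasts. The replicate number is the order of the titles within a group. Deviations from the group mean of same-numbered NNK_LPS and Sil libraries correlated at 0.3935, -0.2105 and 0.1929. As deviations within a group sum to 0, these values cannot decide whether libraries were paired. Of 175 named genes, 31 moved by over 1 SE without Sil 3, 28 without NNK_LPS 1 and 53 without NNK_LPS 2 and Sil 3. None passed the threshold under any alternative. Changes of sign among genes that were not called were not counted. Depth and spread limit genes under 1 CPM most, with a median interval half-width of 1.075 on the log2 scale.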
